A study of Homo sapiens with 4 samples.

Results

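Cancer-testis antigen genes were examined in total RNA of OVCAR3, an established line of human cells grown from a high-grade serous ovarian cancer. The genes were chosen by symbol alone, as the MAGE-A, MAGE-B and MAGE-C, XAGE, PAGE, GAGE, SSX and CTAG genes together with PRAME, which gave 62 of the 62696 gene rows. Of these, 61 lie on chromosome X and PRAME lies on chromosome 22. RNA-seq libraries came from OVCAR3 cells in which the pseudogene transcript ANAPC1P2 was depleted by a short hairpin RNA (KD 1, 2 and 3, the sets of the labels, n = 3 libraries) and from wild-type OVCAR3 cells (WT, n = 1 library), all grown in RPMI with serum. The labels do not say whether the KD sets were separate cultures or clones, so p-values measure only how far these libraries scatter, which can be technical scatter. A non-targeting hairpin is named on no library.

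Cancer-testis genes are active in the germ cells of the testis, some also in the placenta, and are silent in most other adult tissues. Many are switched on in tumours, where loss of DNA methylation at their promoters is a known route to their expression. Their peptides can be presented by HLA class I molecules, which made several of them targets of vaccines and engineered T cells. MAGE proteins bind E3 ubiquitin ligases and alter what these ligases act on, PRAME serves as a substrate receptor of a cullin-2 ligase, and SSX proteins are nuclear proteins known from the SS18-SSX fusions of synovial sarcoma. For the small acidic GAGE, PAGE and XAGE proteins much less is known.

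Many of these genes sit in recently duplicated stretches of chromosome X, with regulatory sequence duplicated along with the gene. The bases just upstream of the start of transcription are shown for 3 of the X-linked genes that rose in KD and for PRAME. They are given 5′ to 3′ on the gene's strand (RefSeq, GRCh38.p14). PRAME had no direction that held across the scalings described below. Capitals mark CpG dinucleotides, the sites of DNA methylation. Each stretch ends before the start in RefSeq and in GENCODE 29.
XAGE2, chrX:52368771-52369020, plus strand: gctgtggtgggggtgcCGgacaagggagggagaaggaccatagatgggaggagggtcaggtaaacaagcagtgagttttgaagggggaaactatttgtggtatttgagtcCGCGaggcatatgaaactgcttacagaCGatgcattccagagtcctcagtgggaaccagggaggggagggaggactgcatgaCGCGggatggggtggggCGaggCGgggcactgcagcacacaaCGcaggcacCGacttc
MAGEA3, chrX:152698544-152698751, plus strand: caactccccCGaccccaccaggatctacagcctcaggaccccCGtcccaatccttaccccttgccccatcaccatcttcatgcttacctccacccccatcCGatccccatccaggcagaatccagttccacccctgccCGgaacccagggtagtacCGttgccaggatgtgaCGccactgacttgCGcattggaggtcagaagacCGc
MAGEC2, chrX:142205291-142205540, minus strand: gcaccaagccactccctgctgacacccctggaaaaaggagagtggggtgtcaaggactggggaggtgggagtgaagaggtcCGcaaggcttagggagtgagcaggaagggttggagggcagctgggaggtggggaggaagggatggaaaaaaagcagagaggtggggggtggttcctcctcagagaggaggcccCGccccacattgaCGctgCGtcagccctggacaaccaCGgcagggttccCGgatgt
PRAME, chr22:22559362-22559515, minus strand: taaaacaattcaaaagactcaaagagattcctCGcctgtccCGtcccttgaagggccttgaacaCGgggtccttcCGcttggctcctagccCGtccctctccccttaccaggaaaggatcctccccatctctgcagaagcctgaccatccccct

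The 250 bases upstream of MAGEA6 were identical to those of MAGEA3, with 250 of 250 bases matching and 0 mismatches. These windows held 15 CpG sites each, against 10 for XAGE2, 6 for MAGEC2 and 9 at the outermost PRAME start. Over 72 RefSeq starts of the 54 members found in the table the median was 8 CpG sites in 250 bases, and over all 35116 RefSeq starts it was 11. The letters CCGGAA, a core bound by ETS factors, occurred on either strand in 4 of the 13 windows of the 10 tested members with a table entry (in MAGEA3, MAGEA6, MAGEB6 and PRAME), in 5 of the 72 windows of all members and in 14.5% of all windows. The GC box letters GGGCGG were found for 3 of the 10 (MAGEC1, MAGEC2 and an inner start of PRAME), in 17 of the 72 windows and in 42.6% of all windows. A match of letters is a description of the sequence and no evidence of binding, and DNA methylation was not measured.

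Total reads counted in genes were 48443589, 56216398 and 42871815 in KD 1, 2 and 3 and 27868718 in WT. Values are normalized read counts as deposited, and 1 read equals 0.948, 0.777 and 1.11 normalized counts in KD 1, 2 and 3 and 1.11 in WT. In every library genes with exactly 2 reads were 3.05 to 4.67 times as many as genes with 1 read, and 71.5% to 79.2% of genes with few reads (1 to 10) had an even number. Low counts therefore came mostly in pairs, so exact 95% intervals and floors below were computed on read pairs, and they cover counting error only. All of these libraries are bulk RNA, in which fewer cells of a type and less RNA per cell cannot be told apart. The targeted transcript ANAPC1P2 (ENSG00000285793.1) had 0, 11 and 8 reads in KD 1, 2 and 3 and 14 in WT. The WT library stood apart from the KD libraries across the transcriptome: 67.7% of 23344 tested genes were called different between the groups, 31.4% higher and 36.3% lower in KD (limma-trend, Benjamini-Hochberg adjusted p under 0.05). WT also had more reads of marker genes of several other cell types, described with the marker lists at the end, and no second WT library can replace it.

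Of the 62 members, 30 had no read in any library, 21 had reads but were below the expression filter (a mean of 10 normalized counts over the 4 libraries), and 11 were tested. Of these 11, 7 rose in KD, none fell and 4 were not called. For comparison, 67.7% of all tested genes were called, 31.4% higher and 36.3% lower. Of 14464 tested protein-coding genes 70.6% were called, 45.9% higher and 24.7% lower, and of the 504 on chromosome X 67.7%, 47.8% higher and 19.8% lower. Of 6665 protein-coding genes with mean levels in the range of the called members 63.8% were called, 28.8% higher and 35.0% lower. Of 1229 with exonic lengths in their range (618 to 1991 bases) 71.0% were called, 54.0% higher and 17.0% lower. Because 3 of the 4 libraries in the filter are KD libraries, a member high in KD passed more easily, and the count over the 11 carries no weight as support. By size of difference, XAGE2 and MAGEB6 ranked 13 and 31 of 23344 genes, and MAGEA12, MAGEA6 and MAGEC2 ranked 182, 230 and 501. MAGEA3 and SSX1, also called, ranked 1191 and 1646. MAGEB6 had no WT read and passed the filter only through KD, so its rank carries no weight as support. Its log2 difference was 5.72 with a pseudocount of 0.5 and 2.64 with 5.

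**Figure D1:**
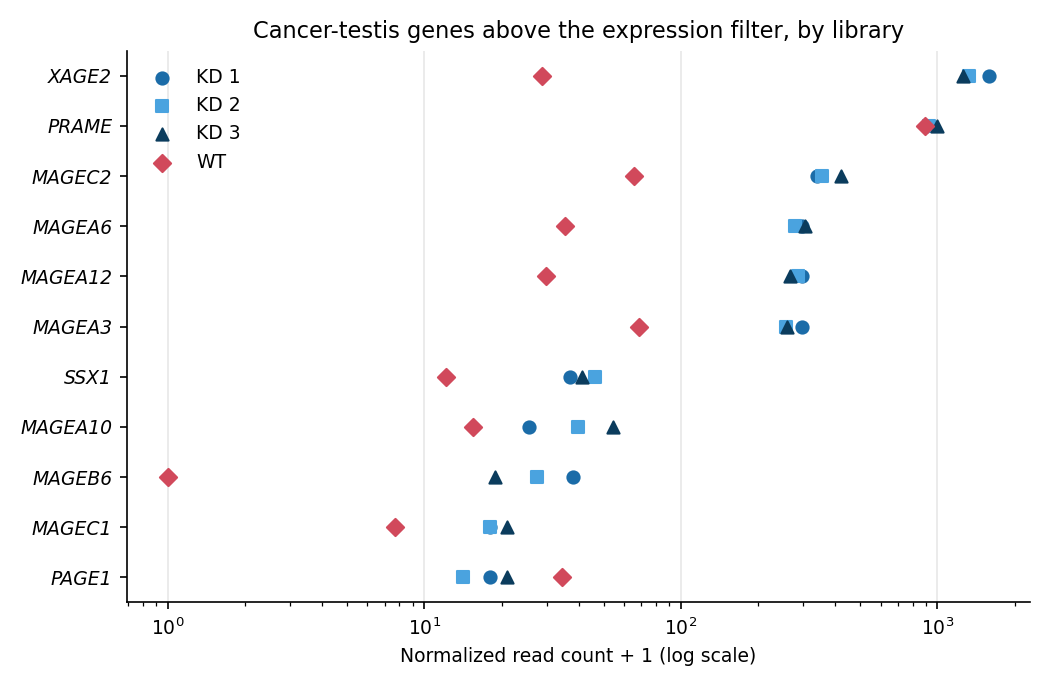
Normalized read count + 1 (log axis) of the 11 tested cancer-testis genes in each library; each symbol is 1 library (KD 1, 2 and 3 in blue, WT in red). WT lies close to the KD libraries for PRAME (893 against 900.4 to 991) and above them for PAGE1. For the other genes shown it lies below all 3 KD libraries. The filter let members high in KD pass more easily, and no share over all tested genes is given, so this separation carries no weight as support.

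XAGE2 (ENSG00000155622.7, chromosome X, 52369030 to 52375680 in GENCODE 29), of the X antigen family, differed most. It stood at 1583, 1321 and 1261 normalized counts in KD 1, 2 and 3 and at 27.8 in WT, where it had 25 reads. All KD libraries lay far above WT and within 1.26-fold of each other. The log2 difference was 5.59 ± 0.17 (SE, limma adjusted p = 6.57e-05), and the pooled KD rate was 50.04 times that of WT (95% interval 28.1 to 90.5). All of its 150-base transcript windows were unique among GENCODE 29 transcripts, so its reads could be placed without a copy. Its relatives were nearly silent. XAGE3, a gene of placenta, had 6, 8 and 0 reads in KD and 0 in WT, XAGE5 had 2, 5 and 3 reads in KD and 0 in WT, and XAGE1A and XAGE1B were listed at 0 in all libraries.

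Of the MAGE-A genes, best known as partners of the ligase TRIM28, 3 neighbours rose. MAGEA12 (ENSG00000213401.10, chromosome X, 152733779 to 152737669) stood at 296, 284 and 266 normalized counts in KD 1, 2 and 3 and at 28.9 in WT. Its log2 difference was 3.24 ± 0.21 (SE, limma adjusted p = 7.56e-05), and the pooled rate was 9.80 times that of WT (interval 5.68 to 18.6). MAGEA6 (ENSG00000197172.11, 152766136 to 152769747) stood at 297, 277 and 305 in KD and at 34.4 in WT, a log2 difference of 3.05 ± 0.20 (limma adjusted p = 7.89e-05). For both genes the 3 KD libraries lay close together and well above WT.

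MAGEA3 (ENSG00000221867.9, 152698752 to 152702347), the antigen used in tumour vaccines, stood at 296, 256 and 258 normalized counts in KD 1, 2 and 3 and at 67.8 in WT. The log2 difference was 1.97 ± 0.20 (SE, limma adjusted p = 0.000312), and the pooled rate was 3.98 times that of WT (interval 2.72 to 5.83). MAGEA3 and MAGEA6 are near-identical copies: 461 of the 1700 distinct 150-base windows of MAGEA3 occurred in MAGEA6 as well, and how the counting treated reads that fit both is not stated. The ratio of MAGEA3 to MAGEA6 reads was 0.997, 0.924 and 0.847 in KD 1, 2 and 3 and 1.97 in WT. The WT ratio rests on 61 and 31 reads (interval 1.03 to 3.79). All 3 KD ratios lay below that interval, although their own intervals, the highest of which reached 1.25, overlapped it, and the difference of the ratios was not tested. MAGEA12, with 0.96% of its windows found in MAGEA2, kept a ratio to MAGEA6 of 0.872 to 1.03 in KD and 0.839 in WT (interval 0.36 to 1.80).

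MAGEA10, which lies apart from that cluster, stood at 24.6, 38.9 and 53.4 normalized counts in KD 1, 2 and 3 and at 14.4 in WT. All KD values lay above WT, but KD 3 was 2.17 times KD 1, and the difference was not called (log2 difference 1.31 ± 0.55, limma adjusted p = 0.0723). It was called without KD 1 (adjusted p = 0.0471) and with median-of-ratios scaling (0.043). Other MAGE-A genes were rare. MAGEA1, the founding gene of the family, was lower in KD in number, with 8, 8 and 2 reads against 16 in WT, or 0.313 times the WT rate (interval 0.107 to 0.931). MAGEA11, a coregulator of the androgen receptor, had 6, 2 and 4 reads in KD and 4 in WT, and MAGEA8 had 8, 0 and 2 in KD and 2 in WT.

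MAGEC2 (ENSG00000046774.10, chromosome X, 142202345 to 142205290), another MAGE protein that binds TRIM28, stood at 339, 353 and 419 normalized counts in KD 1, 2 and 3 and at 64.4 in WT. The groups did not overlap, and the log2 difference was 2.50 ± 0.20 (SE, limma adjusted p = 0.000122), with a pooled rate 5.69 times that of WT (interval 3.93 to 8.58). No 150-base window of MAGEC2 was shared with another gene. MAGEC1, its neighbour, stood at 17.1, 17.1 and 20.01 in KD and at 6.66 in WT. Its KD values all lay above WT, but the difference missed the threshold (log2 difference 1.31 ± 0.54, limma adjusted p = 0.0669; 0.0454 with no filter, 0.0439 with TMM and 0.0399 with median-of-ratios scaling). MAGEC3 had 2 reads in each of the 4 libraries.

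Among the 11 MAGE-B genes only MAGEB6 (ENSG00000176746.6, chromosome X, 26192440 to 26195646) passed the filter. It stood at 37.0, 26.4 and 17.8 normalized counts in KD 1, 2 and 3 and had no read in WT. Set against the WT floor of 3 read pairs the KD mean was at least 4.06-fold higher, the exact lower limit of the pooled ratio, which includes the counting error of KD, was 3.25, and the log2 difference of 4.75 ± 0.66 (limma adjusted p = 0.0011) depends on the pseudocount. MAGEB2 had 2, 6 and 0 reads in KD, MAGEB1, MAGEB16 and MAGEB6B had 2 reads each in 1 KD library, and the other 6 MAGE-B genes had none, although all their windows were unique. WT had no read of any MAGE-B gene.

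SSX1 (ENSG00000126752.8, chromosome X, 48255317 to 48267444), a fusion partner of SS18 in synovial sarcoma, stood at 36.02, 45.1 and 40.02 normalized counts in KD 1, 2 and 3 and at 11.1 in WT. The difference was called (log2 difference 1.77 ± 0.43, limma adjusted p = 0.0116), and the pooled rate was 3.67 times that of WT (interval 1.49 to 11.7, on 10 WT reads). SSX7 had 2, 6 and 6 reads in KD and 2 in WT, and SSX5 had 2 reads in KD 1 and 2 in WT.

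PRAME (ENSG00000185686.18, chromosome 22, 22547701 to 22559361), the most abundant member in WT, was the exception among the well expressed genes. It stood at 900.4, 929 and 991 normalized counts in KD 1, 2 and 3 and at 893 in WT, so WT lay just below the KD range. The log2 difference was 0.07 ± 0.11 (SE, limma adjusted p = 0.586), and the pooled rate ratio was 1.05 with an interval of 0.94 to 1.17. That value follows the scaling: with equal library totals PRAME was lower in KD (log2 difference -0.49, adjusted p = 0.00637), and with TMM and median-of-ratios scaling it was higher (0.30 and 0.35, adjusted p = 0.032 and 0.0273). PRAME thus had no direction that held across these scalings.

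PAGE1, of the prostate-associated gene family, went the other way in number. It stood at 17.1, 13.2 and 20.01 normalized counts in KD 1, 2 and 3 and at 33.3 in WT, which was above all KD libraries. The difference was not called (log2 difference -0.97 ± 0.51, limma adjusted p = 0.134), except with equal library totals (-1.51, adjusted p = 0.0342). CTAG2, which encodes LAGE-1, a relative of the antigen NY-ESO-1, was below the filter with 2, 4 and 2 reads in KD and 14 in WT, or 0.159 times the WT rate (interval 0.034 to 0.624). With no filter it was called lower (limma adjusted p = 0.0266), as was PAGE4 (8.84e-05), whose call rests on 2 WT reads. PAGE2, PAGE2B and PAGE5 had 0 to 8 reads in any library. Of the GAGE genes, GAGE1 had 4, 2 and 2 reads in KD and 0 in WT, and GAGE2A had 6 reads in KD 2 and 2 in WT.

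**Figure D2:**
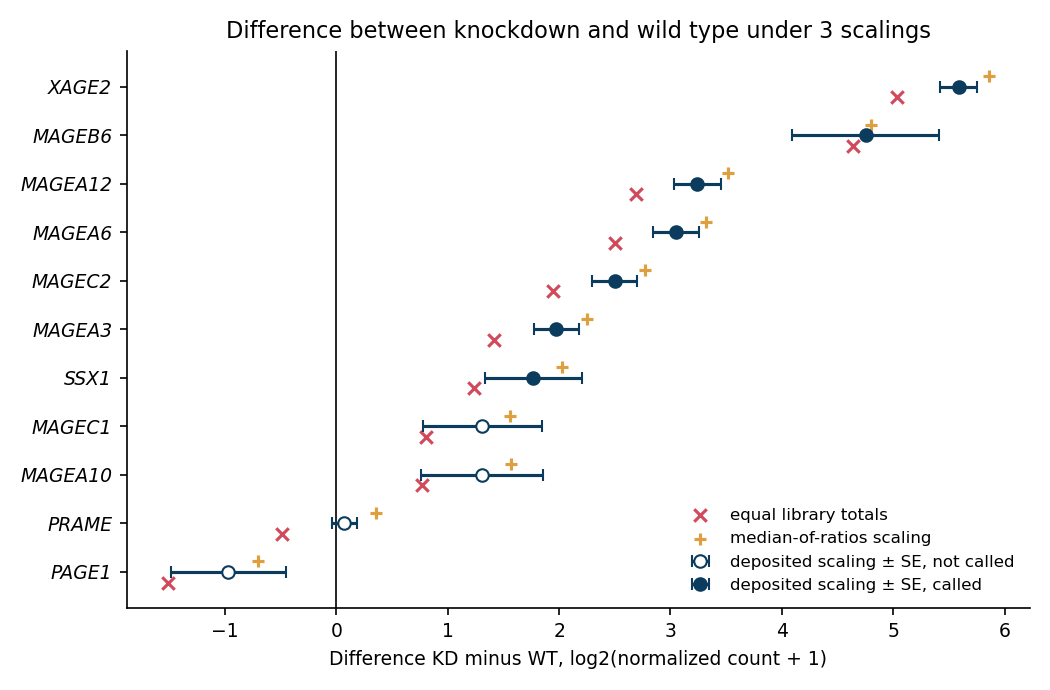
Difference KD minus WT on the log2(normalized count + 1) scale for the 11 tested members; circles are the deposited scaling with SE (filled, called; open, not called), crosses equal library totals and plus signs median-of-ratios scaling. The 7 called genes stay above 0 under each of these scalings (SSX1 lowest, at 1.24 with equal totals), while PRAME changes sign.

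The scaling moves the differences of well expressed genes by nearly a common amount, and those of genes with few reads by less. The median log2 difference over all tested genes was -0.28 with the deposited scaling, -0.84 with equal library totals, -0.05 with TMM and close to 0 with median-of-ratios scaling. MAGEA3, for example, stood 2.25 above that median with the deposited scaling and with equal library totals, whereas MAGEB6, with no WT read, stood 5.03 and 5.47 above it. A ratio of reads within a library does not depend on scaling. The ratio of XAGE2 to PRAME reads was 1.76, 1.42 and 1.27 in KD 1, 2 and 3 and 0.0311 in WT (interval 0.0171 to 0.0559). The MAGE-A genes together had 1.04, 0.931 and 0.906 reads for each PRAME read in KD and 0.19 in WT (interval 0.148 to 0.245), and MAGEC2 had 0.377, 0.38 and 0.423 in KD and 0.0721 in WT. For each of these 3 ratios the KD intervals and the WT interval did not overlap. XAGE2, the MAGE-A genes and MAGEC2 had differed more than PRAME in the values above, so this separation repeats those differences. The share of all tested genes whose ratio to PRAME separates likewise was not computed, and the separation carries no weight as support. PRAME made up 72.2% of the reads of all members in WT and 23.1% to 26.8% in KD, and XAGE2 2.25% in WT and 34.1% to 40.6% in KD.

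**Figure D3:**
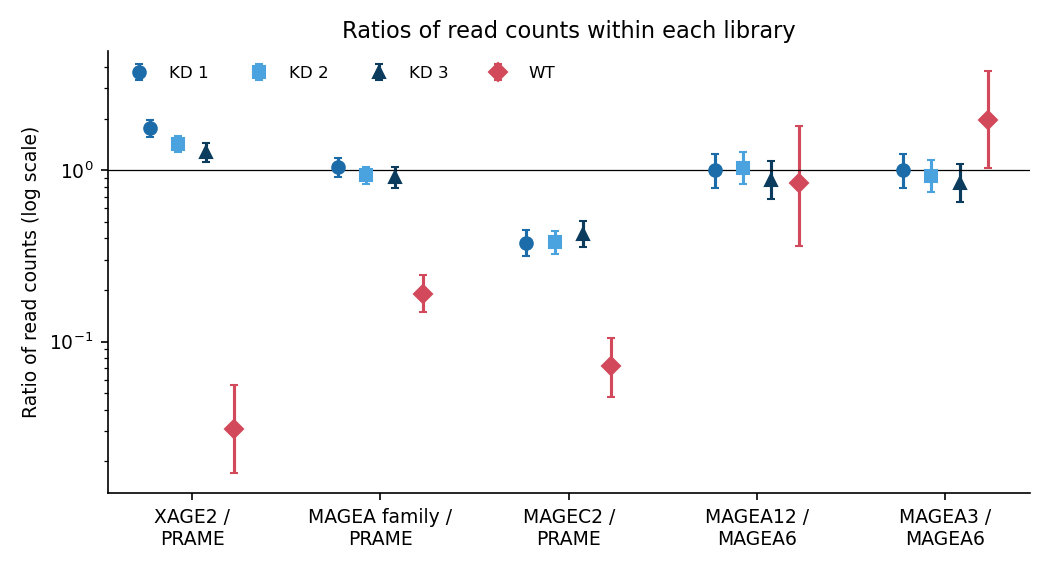
Ratios of read counts between members within each library (log axis), with exact 95% intervals on read pairs. For the 3 ratios to PRAME on the left the WT point lies below all KD points (XAGE2 to PRAME 0.0311 against 1.27 to 1.76). This repeats the differences of the single genes and carries no weight as support. For MAGEA12 to MAGEA6 the 4 libraries overlap.

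Levels scaled by exonic length and library total (RPKM, exon union of GENCODE 29) put XAGE2 first in KD at 49.2 ± 6.49 (SD, n = 3), and it is the shortest tested member. PRAME followed at 5.45 ± 0.227, then MAGEC2 at 4.06 ± 0.353, MAGEA6 at 3.43 ± 0.0345, MAGEA3 at 3.30 ± 0.289 and MAGEA12 at 3.18 ± 0.268. The 3 MAGE-A values did not differ beyond their spread. SSX1 (0.682), PAGE1 (0.548), MAGEB6 (0.305), MAGEA10 (0.293) and MAGEC1 (0.0923) formed the low end in RPKM. In WT the order was PRAME at 7.64 RPKM, PAGE1 at 1.62, XAGE2 at 1.45, MAGEA3 at 1.22 and MAGEC2 at 1.05, with all others below 1. The WT order of PAGE1, XAGE2 and MAGEA3 rests on 30, 25 and 61 reads of a single library and was not tested. How reads shared with a copy were counted is not stated, so the levels of MAGEA3 and MAGEA6 per length are uncertain.

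Read sums over families were also compared. MAGE-A genes summed to 937, 865 and 897 normalized counts in KD 1, 2 and 3 and to 169.9 in WT, 5.28 times as high in KD (interval 4.17 to 6.69). The MAGE-C sum was 5.27 times as high (3.72 to 7.74), the XAGE sum 50.3 times (28.2 to 91.0) and the SSX sum 2.94 times (1.36 to 7.56, or 0.922 to 5.14 with equal library totals). The CTAG sum was 0.159 times the WT rate (0.034 to 0.624). The PAGE sum was 0.627 times the WT rate with an interval that includes no difference (0.346 to 1.14), but 0.426 times with equal library totals, where the interval does not (0.235 to 0.778). The GAGE sum was 1.94 times the WT rate (0.25 to 87.6). All 61 X-linked members together were 8.13 times as high in KD, and 4.44 times without XAGE2 (3.74 to 5.30). The 21 members below the filter summed to 64, 57 and 39 reads in KD and 49 in WT, 0.907 times the WT rate (0.561 to 1.45), or 0.617 times with equal library totals (0.382 to 0.989). Members high in KD passed the filter more easily and so left this group. The filter itself can thus lower this ratio, which carries no weight as support.

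**Figure D4:**
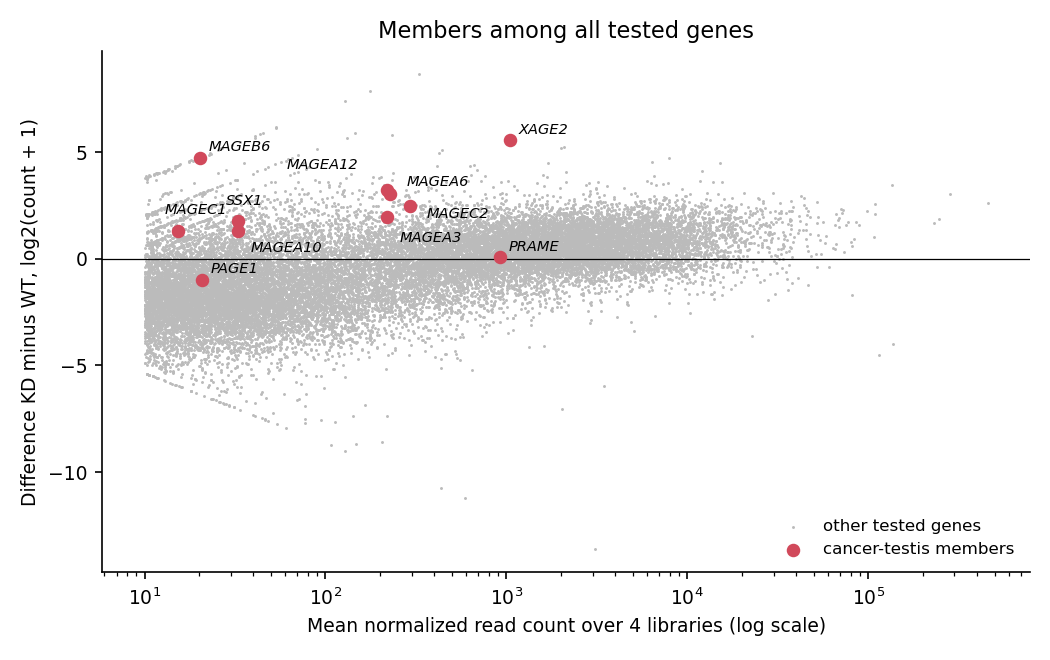
Difference KD minus WT, log2(normalized count + 1), against the mean normalized read count over 4 libraries (log axis) for all 23344 tested genes (grey) and the 11 tested members (red, named). XAGE2 (5.59) and MAGEB6 (4.75) lie near the upper edge of the cloud, and PRAME (0.07) lies within it. MAGEB6 had no WT read and passed the filter only through KD, and its height depends on the pseudocount.

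For the members without reads, the sequence limits what can be said. Of the 30 members with no read, 20 had fewer than 50% of their 150-base transcript windows unique to them (GAGE12B, shorter than a read, was counted with these). Across protein-coding genes, 11.7% of the 128 genes with no unique window had any read in the 4 libraries, against 92.6% of the 15854 genes whose windows were all unique. SSX2 shared all windows with SSX2B, SSX4 with SSX4B and XAGE1A with XAGE1B, and CTAG1A shared 797 of 993 with CTAG1B, which encode NY-ESO-1. MAGEA9 and MAGEA9B and most GAGE genes were in the same position. Zeros of these genes do not show that they were silent. MAGEA2 and MAGEA2B, 88.05% of whose windows are in common (counted in MAGEA2), had 4, 0 and 6 reads and 0, 2 and 0 reads in KD and none in WT, and these values are uncertain too.

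**Figure D5:**
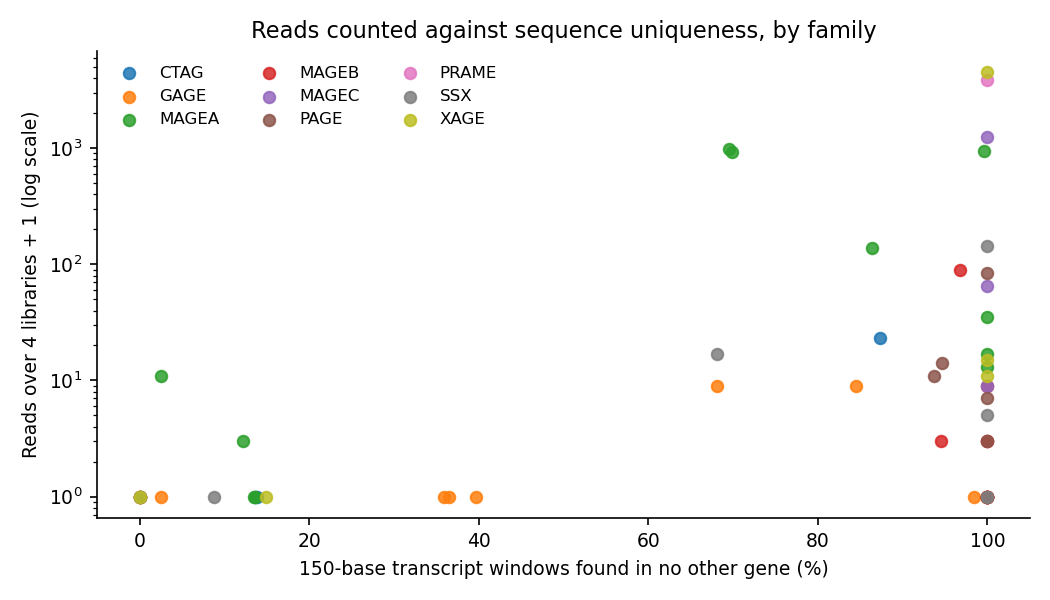
Reads over the 4 libraries + 1 (log axis) against the share of 150-base transcript windows found in no other GENCODE 29 gene, 1 point per member, coloured by family. Of 22 members under 50% (GAGE12B, without a window, is not drawn), 2 had any read, MAGEA2 and MAGEA2B.

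Another 9 members had no read although all their windows were unique, namely MAGEA4, MAGEB3, MAGEB4, MAGEB5, MAGEB10, MAGEB17, MAGEB18, PAGE3 and SSX3, and GAGE10 had none with 98.5% unique. For these, the floor of 3 read pairs was taken as an approximate upper limit for a count of 0 in a library. It equals 5.69, 4.66 and 6.67 normalized counts in KD 1, 2 and 3 and 6.66 in WT. MAGEA4, the target of an engineered T cell therapy, was thus not detected at this depth in KD or WT.

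The nearest tested genes were compared after the values had been seen. The CSAG genes, cancer-testis genes of unknown function, are interleaved with the MAGE-A cluster. CSAG1 (ENSG00000198930.13, minus strand) and MAGEA12 (plus strand) start back to back, 44 bases apart. CSAG1 stood at 674, 647 and 670 normalized counts in KD 1, 2 and 3 and at 48.9 in WT (log2 difference 3.74, limma adjusted p = 6.57e-05). The ratio of MAGEA12 to CSAG1 reads was 0.439, 0.439 and 0.396 in KD and 0.591 in WT (interval 0.274 to 1.23), so these intervals overlap. CSAG2 and CSAG3, with 26.03% and 22.7% unique windows and so uncertain counts, had 12 to 26 reads in KD and none in WT. Of the 18 distinct nearest tested protein-coding genes on either side of the tested members, 7 rose, 4 fell and 7 were not called, where 45.9% of protein-coding genes rose and 24.7% fell. CETN2, a centrosome gene 57.2 kb beyond MAGEA6, rose (log2 difference 2.39), whereas GABRE, a GABA receptor gene below MAGEA10, fell (-1.98). Some nearest genes were distant: MAGED1, 467 kb from XAGE2, differed by 0.41, and POLA1 and GK, 1195 and 4458 kb from MAGEB6, by 0.07 and 0.93.

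The related MAGE genes that most tissues express were examined as a list. Of 12 genes of this type II group 6 were tested, of which MAGED1, MAGED2 and MAGEH1 rose and TRO fell. MAGED2 stood at 1728 ± 97.2 normalized counts (SD, n = 3) in KD and at 1244 in WT (limma adjusted p = 0.00879), and TRO at 605 ± 71.4 and 1144. The median log2 difference of the 6 was 0.39, near the 0.28 of all tested protein-coding genes, of which 45.9% rose and 24.7% fell. With equal library totals MAGED1 and MAGED2 changed sign (-0.15 and -0.09). MAGED1 was also not called without KD 2.

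Other cancer-testis genes went both ways: of 68 listed, 25 were tested, 13 rose and 6 fell (median log2 difference 1.00), beside 45.9% and 24.7% of protein-coding genes. The risers included CEP55, a protein of the last step of cell division, at 5066 ± 482 in KD and 856 in WT, and CSAG1. DSCR8, a noncoding gene also expressed in melanoma, rose from 21.1 in WT to 127 ± 4.17. TTK, PBK, NUF2, OIP5 and KIF2C, which act in mitosis, also rose. TPTE, a phosphatase of testis with 32.03% unique windows, fell from 616 to 94.2 ± 24.4 and ACRBP, a sperm acrosome protein, from 332 to 58.3. CTCFL, the germline relative of CTCF that is known to activate MAGE-A promoters, had 27.8 normalized counts in WT and 12.3 in KD and was not called (limma adjusted p = 0.099).

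Of 22 enzymes and readers of DNA methylation 21 were tested, 11 rose and 6 fell (median log2 difference 0.33). Over all tested protein-coding genes 45.9% rose and 24.7% fell, with a median of 0.28, so these counts are near the background. DNMT1, the maintenance methyltransferase, stood at 10044 in KD and 6442 in WT (limma adjusted p = 0.00234), and its partner UHRF1 rose from 504 to 1258 ± 103. DNMT3A, a de novo methyltransferase, fell from 3201 to 2387 (0.0197), and DNMT3B rose from 1326 to 1671 (0.0348). TDG, which removes oxidized methylcytosine, rose from 1123 to 4990 ± 415, and MBD2 and CXXC5 rose as well. Of 27 repressors of germline genes 16 rose and 3 fell (median 0.59, against 45.9% higher, 24.7% lower and a median of 0.28 over protein-coding genes). The risers were led by RNF2, HDAC2, SUV39H2 and SUZ12, which were 3.72-, 3.16-, 2.84- and 2.83-fold higher in KD. The 3 that fell, SETDB1, PPHLN1 and MORC2, stood at 0.72, 0.79 and 0.813 times the WT rate.

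Of 25 ligase subunits and other partners of MAGE, SSX and PRAME proteins 19 rose and 1 fell (median log2 difference 1.03), where 45.9% of protein-coding genes rose and 24.7% fell. LRR1, a substrate receptor like PRAME, rose 5.68-fold, ELOB and ELOC, the elongins that link PRAME to cullin-2, 5.16-fold and 3.10-fold, and NSMCE1, a ligase of the SMC5/6 complex, 3.35-fold. Of 19 tested genes of HLA class I presentation 9 rose and 4 fell (median 0.13), near the 45.9% and 24.7% of protein-coding genes. The proteasome activators PSME1 and PSME2 rose to 4817 ± 360 from 1753 and to 4146 ± 263 from 1826, and PSMB8 of the immunoproteasome from 94.4 to 217 ± 43.7. The other immunoproteasome subunits did not follow. PSMB10 fell from 628 to 317 ± 22.2, and PSMB9 was not called (log2 difference 0.13, limma adjusted p = 0.739). HLA-B fell from 472 to 227 ± 25.4.

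Markers of other cells moved with the comparison, and their part in the members' values was not tested. For comparison, 45.9% of all tested protein-coding genes were higher in KD and 24.7% lower. Serous ovarian carcinoma markers were present in all libraries, 20 of 20 tested, with 14 higher and 4 lower in KD. PAX8, a lineage factor, fell to 19884 ± 1521 from 62685 and MUC16 to 28927 ± 5655 from 458890, while KLK6 and FOLR1 rose 11.9-fold and 3.52-fold. Red blood cell markers summed to 10.01 to 27.2 normalized counts in KD and to 14887 in WT, with 5 of 5 tested genes lower. In KD 8 of 12 were at 0 reads, the globin genes HBA1, HBA2 and HBB included. Another globin gene, HBG2, was found in KD alone, at 4.74, 24.1 and 7.78 normalized counts for sets 1, 2 and 3. This was the largest single part of each KD sum. HBG2 was below the filter, and with 43.58% unique windows its counts are uncertain. Leukocyte markers summed to 436 to 463 in KD and 1637 in WT (9 of 10 tested lower), neuron markers to 267 to 277 and 3642 (5 of 8) and fibroblast markers to 569 to 673 and 1274 (3 of 8). Single genes made up most of the neuron and fibroblast sums in WT, NEUROD6 with 2374 and COL1A1 with 916 normalized counts. Other neuron markers were rare in WT, where NEFL, NEFM and STMN2 had 11, 6 and 3 reads. RBFOX3 stood at 133 in KD and 108 in WT and was not called. DCN of fibroblasts had 8, 4 and 4 reads in KD 1, 2 and 3 and 0 in WT.

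Melanocyte and melanoma markers, of interest because MAGE genes are known from melanoma, summed to 647 to 734 normalized counts in KD and to 2018 in WT. Of 6 tested, RAB38 rose and MLANA and SOX10 fell, SOX10 to 4.94 ± 3.96 from 859.7. SOX10 and MLANA, the latter at 671 normalized counts, made up most of the WT sum. MITF was not called (log2 difference 0.13, limma adjusted p = 0.492). TYR had 6, 6 and 0 reads and TRPM1 8, 8 and 0 reads in KD 1, 2 and 3, and both had 0 in WT. Germ cell markers of the testis went both ways, with 2 of 10 tested higher and 5 lower. DAZL, which defines germ cells, had no read in any library and DDX4 had 2 reads in KD 1 and 2 in WT. SYCP3 of meiotic chromosomes fell from 429.8 to 121 ± 28.7, and ID4 rose from 1764 to 5893 ± 535. Sertoli and Leydig cell markers had no common direction either (3 of 8 higher, 3 lower). Placental markers leaned to WT, with 1 of 5 tested higher, 3 lower and a median log2 difference of -2.48. They summed to 300 to 414 normalized counts in KD and to 635 in WT. Of all tested protein-coding genes 45.9% were higher and 24.7% lower.

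The KD libraries differed among themselves at some members. KD 1 had the highest XAGE2 and MAGEB6 values and KD 3 the lowest, at 1.26-fold and 2.08-fold. MAGEA10 and MAGEC2 had the opposite order, with KD 3 the highest and KD 1 the lowest (2.17-fold and 1.24-fold). MAGEA12, MAGEA6 and PRAME varied least, with coefficients of variation of 5.38%, 4.93% and 4.89%. MAGEB6 rests on 39, 34 and 16 reads and MAGEA10 on 26, 50 and 48.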

How the data were processed

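The aligner STAR (2.7.11b), the counter featureCounts (2.0.6), DESeq2 and the build hg38 are named in the submitters' processing notes; no source used here gives the annotation, strand setting or treatment of multiply mapping reads. Libraries were made from 100 ng of rRNA-depleted total RNA with dUTP strand marking and sequenced as 150-base pairs, per the labels' protocols. Each deposited file holds signal values, the authors' normalized read counts for each gene; all were whole multiples of 1 step per library (tolerance 0.001 reads), so reads were recovered. Groups were compared with limma-trend (limma 3.58.1, R 4.3.3) on log2(value + 1) for genes with a mean of at least 10, two-sided, with Benjamini-Hochberg adjustment over all 23344 genes and a threshold of 0.05. The spread comes from the 3 KD libraries (2 residual degrees of freedom), and the lone WT library is taken to vary as they do; differences on this scale understate low genes. The code was tested on simulated data. Alternatives used edgeR 4.0.16 and DESeq2 1.42.0 on recovered reads, other scalings, pseudocounts and filters, and each KD library left out. Folds are ratios of pooled rates, with exact conditional binomial intervals (95%) on reads divided by 2 and rounded up; the floor is 3 read pairs (6 reads). Positions, exon lengths and 150-base transcript windows come from GENCODE 29 on GRCh38, which held all 62 members. Tested members are named with all values, other members with their reads, and from each companion list up to 4 called genes with the largest differences and 50 or more normalized counts, and further genes of known role that were picked after their values were seen. Members and lists were chosen with earlier results of these data known. A gene of the antigen presentation list is not reported here.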

Additional observations from a re-analysis of the deposited data

How the results depend on the processing

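The count of called cancer-testis genes was 7 with both pseudocounts, edgeR and DESeq2, 5 with a mean of at least 50 (6 tested), 9 with equal library totals (7 higher, 2 lower) and with TMM, and 10 with no filter (32 tested) or median-of-ratios scaling. XAGE2, MAGEA12, MAGEA6, MAGEA3, MAGEC2, MAGEB6 and SSX1 were called higher under every alternative in which they were tested. Leaving out 1 KD library gave 7 to 8 called members, 14204 to 15053 called genes of all and 129 to 141 called genes of the lists, against 15794 and 151. The split of all calls was 7329 higher and 8465 lower, or 4745 and 12506 with equal totals, 8601 and 6785 with TMM, 8758 and 6630 by median of ratios, 7102 and 5086 with a mean of at least 50, and 7833 and 6016 with DESeq2. With equal library totals the KD to WT ratio was 3.59 for the MAGE-A sum, 3.59 for the MAGE-C sum and 0.714 for PRAME, whose log2 difference reversed to -0.49; MAGED1 and MAGED2 reversed to -0.15 and -0.09. PRAME stood at 1.24 (TMM) and 1.27 (median-of-ratios scaling). These follow from the scaling itself. edgeR on read pairs, added after the values were seen, called 7 members. No paired analysis was possible because the single wild-type library shares no number with a KD library in the labels. Members with 10 to 30 WT reads are limited by depth.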
